A study of Mus musculus with 18 samples.

Results

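The genes described here are the NF-kappaB subunits and inhibitors Nfkbia, Nfkbie, Nfkbiz, Nfkb1, Nfkb2, Rel, Rela, Relb, Tnfaip3 and Bcl3. They are 10 of the 54532 genes in a table of RNA-seq read counts, picked by their Ensembl identifiers from a list of symbols. That list was chosen with earlier results of these data known. The libraries came from retinas of rd1 mice on the FVB background at postnatal day 30, a strain in which a Pde6b mutation kills the rods early in life. TGFB1 retinas had received AAV8-GFP together with AAV8-TGFB1 by subretinal injection, and GFP retinas had received AAV8-GFP alone, so every retina carried the GFP vector and no uninjected retina was compared. Papain-dissociated cells were sorted by antibody staining into microglia and the remaining retinal cells (non-microglia), and poly-A RNA was made into libraries with a modified Smart-Seq2 protocol. There were 7 TGFB1 microglia libraries, 7 GFP microglia libraries, 2 TGFB1 non-microglia libraries and 2 GFP non-microglia libraries. The labels do not name the promoter of either vector or the cells it reached. Whether the libraries of a group came from separate animals is not stated. Each microglia group held libraries with Xist counts and libraries with Y-linked counts, so not all of them came from the same animal. Spread among libraries of the same kind, and in non-microglia, may be only technical, and the p-values below reflect it.

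NF-kappaB is a family of transcription factors that carry inflammatory and survival signals from receptors at the cell surface to the nucleus. Its subunits pair with each other and are held in the cytoplasm by IkB proteins until the IKK complex marks the IkB for destruction. Several IkB genes and Tnfaip3 are themselves classic targets of NF-kappaB and switch the signal off again, and microglia, the resident macrophages of the retina, use the pathway in their response to injury and to dying neurons.

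The promoters of Nfkbia, Nfkbie and Rel are shown because Nfkbia and Nfkbie set the pattern among the microglia libraries described below and Rel had a large difference between the cell fractions. Each run covers 150 bases up to the base before the RefSeq transcription start in GRCm38.p6, 5′ to 3′ on the gene's own strand, and capitals mark matches to the NF-kappaB consensus on either strand, with overlapping matches joined.
Nfkbia: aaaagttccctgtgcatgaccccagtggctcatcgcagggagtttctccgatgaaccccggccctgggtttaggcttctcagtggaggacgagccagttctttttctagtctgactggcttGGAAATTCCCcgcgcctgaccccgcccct
Nfkbie: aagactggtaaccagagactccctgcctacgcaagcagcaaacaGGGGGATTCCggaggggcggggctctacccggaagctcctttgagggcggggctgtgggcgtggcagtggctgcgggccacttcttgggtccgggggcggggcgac
Rel: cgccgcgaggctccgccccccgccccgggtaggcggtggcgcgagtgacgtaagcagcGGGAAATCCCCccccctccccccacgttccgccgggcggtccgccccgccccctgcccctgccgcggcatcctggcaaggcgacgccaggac
The Nfkbia run is chr12:55492648-55492797 (minus strand), with its match at bases -29 to -20 from the start. The Nfkbie run is chr17:45555550-45555699 (plus strand), with its match at bases -106 to -97. The Rel run is chr11:23770970-23771119 (minus strand), with overlapping matches at bases -92 to -82. Of the 10 members, 7 had a promoter window of 300 bases in the RefSeq table, and 6 of those 7 held the consensus in a window (all but Rela). Counted by windows, since Nfkb2 and Tnfaip3 have several, it was in 8 of 10 member windows, against 4.51% of all 32851 windows. Windows 2 and 3 of Nfkb2 overlap and share a match, which was counted in both.

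Library totals lay between 1582451 and 3064027 counts, and genes of the ribosomal RNA repeat took 5.66 to 11.3% of them. The labelled fractions differed in their microglia and Mueller glia markers as the labels have it. Of 4 tested retinal ganglion cell markers 2 were higher in microglia in TGFB1 retinas and 3 in GFP retinas, with 0 lower. Of 8 tested cone markers 1 was higher in microglia and 6 lower in both kinds of retina. Of 5 tested pigment epithelium markers 1 was higher and 4 lower in both. Over all genes tested, 30.8% were higher and 34.4% lower in microglia in TGFB1 retinas, and 29.9% and 34.2% in GFP retinas. The summed level of 15 microglia markers was 47192 to 56276 CPM (counts scaled to library size) in the microglia libraries and 59.5 to 70.7 CPM in the non-microglia libraries, where C1qc, Fcrls and Trem2 were at 0 in every library. Mueller glia markers summed to 4662 to 7151 CPM in the microglia libraries and 19441 to 22369 CPM in the non-microglia libraries. Apoe, which microglia also express, made up most of the sum in microglia, averaging 5302 ± 1026 CPM in TGFB1 microglia and 4669 ± 401 CPM in GFP microglia. All levels given in CPM were scaled over the 18 libraries with the TMM method. The factors were 0.884 to 1.002 in microglia and 1.29 to 1.32 in non-microglia, so a level compared between the fractions rests on that scaling.

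Members are ordered here per kilobase of exon, and the order in CPM alone differed. In CPM Nfkbiz was above Nfkbia in TGFB1 non-microglia (91.3 against 74.1) and in GFP non-microglia (104 against 94.1). Nfkb1 was above Rela in TGFB1 microglia (117.5 against 105 CPM) and in GFP microglia (107 against 102 CPM). Per kilobase Nfkbia, which codes for IkB-alpha, had the highest level of the members in every group. Per kilobase of exon it averaged 122.8 ± 46.0 CPM in TGFB1 microglia (SD, n = 7), 132.4 ± 48.2 CPM in GFP microglia (n = 7), 46.0 ± 1.1 CPM in TGFB1 non-microglia (n = 2) and 58.5 ± 14.3 CPM in GFP non-microglia (n = 2). Its range did not overlap that of the next member in any of the 4 groups. Rela, the p65 subunit that carries the activation domain of the most common dimer, came next in microglia, at 34.2 ± 4.56 CPM per kilobase in TGFB1 retinas and 33.1 ± 3.67 CPM per kilobase in GFP retinas. In non-microglia that place was held by Nfkbiz, the nuclear IkB-zeta, at 18.2 ± 3.95 CPM per kilobase in TGFB1 retinas and 20.8 ± 1.52 CPM per kilobase in GFP retinas. Neighbours from Nfkbiz down to Nfkbie overlapped in their ranges in TGFB1 microglia, and neighbours from Nfkbiz down to Tnfaip3 overlapped in GFP microglia. Bcl3, an IkB-like coactivator of p50 and p52 dimers, was last in all 4 groups, with 0 to 8 counts in a library and 63 in all. It was too low for the tests and gave 21 counts over the TGFB1 microglia libraries and 21 over the GFP microglia libraries, which is 1.41 CPM (exact 95% Poisson interval 0.875 to 2.16) and 1.32 CPM (0.818 to 2.02). These intervals cover counting error only.

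**Figure D1:**
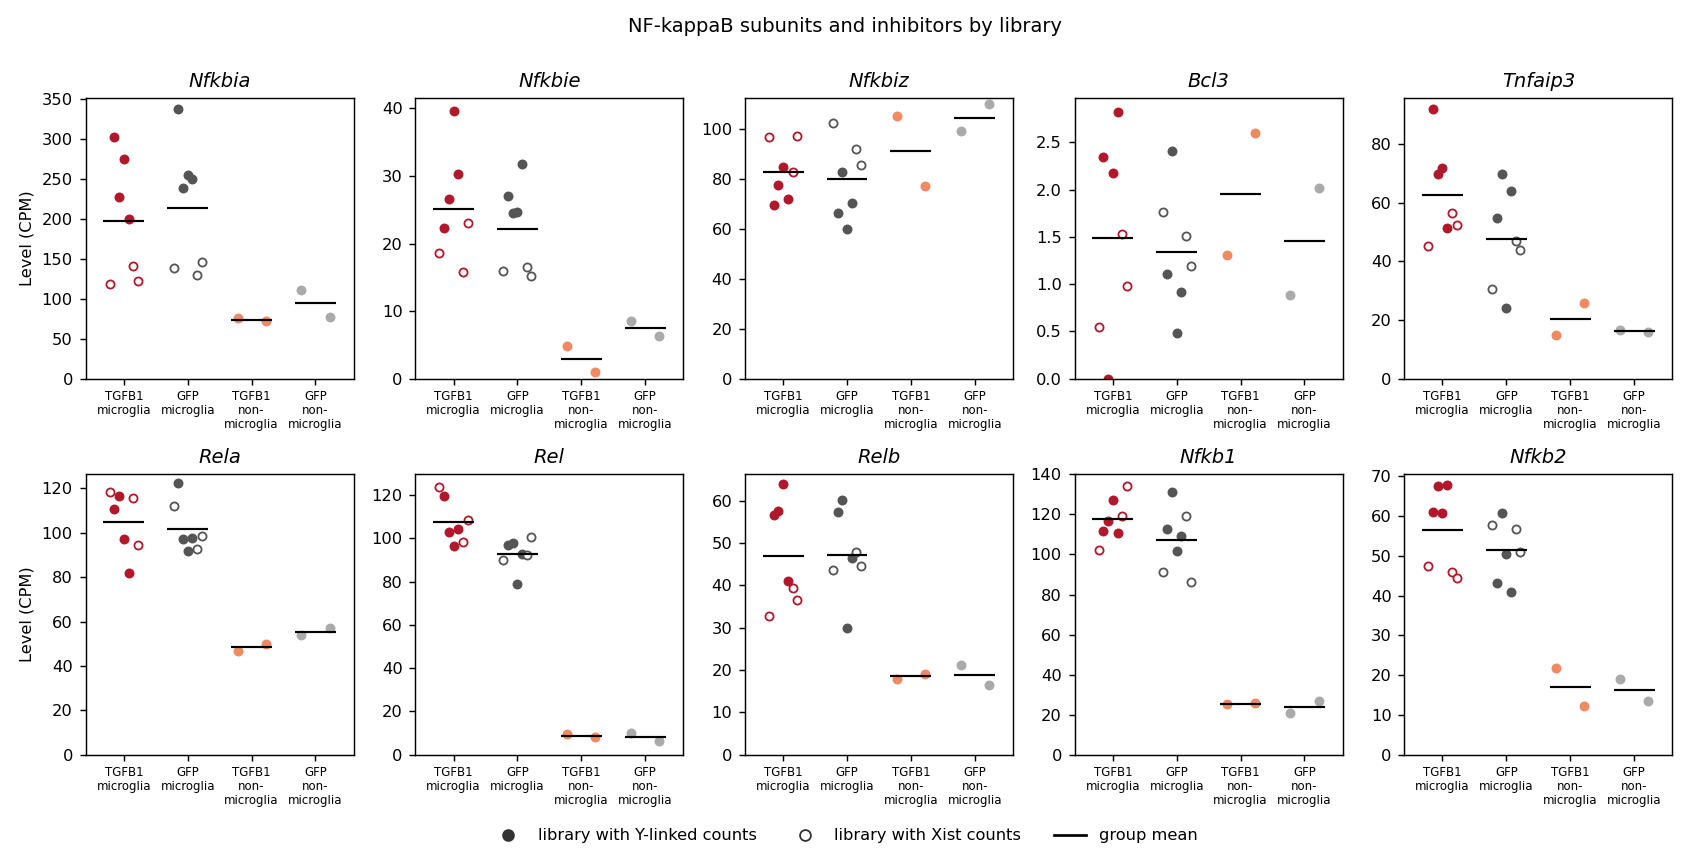
Level of each member in CPM on a linear axis from 0, in TGFB1 microglia, GFP microglia, TGFB1 non-microglia and GFP non-microglia. Points are libraries, filled where Y-linked genes and open where Xist gave the counts, and lines are group means. Nfkbia spans 118 to 337 CPM in the microglia libraries, with all open points under the filled ones, while Rel is at 78.9 to 124 CPM in microglia and 6.40 to 9.99 CPM in non-microglia.

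Comparing TGFB1 with GFP microglia asks whether the vector changed expression of the pathway in these cells. No member passed the test: 0 of 9 tested members were higher and 0 were lower at an adjusted p under 0.05 (edgeR quasi-likelihood test, Benjamini-Hochberg adjustment over 10970 genes), while 0.31% of all genes tested passed, 0.237% higher and 0.0729% lower. With no adjustment 1 of 9 members, Rel, was under 0.05, as were 730 of all 10970 genes tested. DESeq2 and limma voom also called 0 members, though DESeq2 gave no adjusted p for Nfkbie. The members' median log2 fold change was 0.12, against 0.0030 over all genes tested.

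Among the inhibitors, Nfkbia (chr12:55489410-55492647, minus strand) had 118 CPM at the lowest, 200 CPM at the median and 302 CPM at the highest in TGFB1 microglia, against 130, 238 and 337 CPM in GFP microglia. The ranges overlapped nearly throughout, and 3 of the 7 TGFB1 libraries lay above the GFP mean. The log2 fold change was -0.11 (SE 0.28, 95% interval -0.72 to 0.50, adjusted p = 0.975 by edgeR). Nfkbie, the IkB-epsilon gene on chromosome 17, had 15.8, 23.0 and 39.6 CPM in TGFB1 microglia and 15.1, 24.6 and 31.7 CPM in GFP microglia, again with overlapping ranges and a log2 fold change of 0.17 (SE 0.20). Nfkbiz had 69.6, 82.6 and 97.3 CPM in TGFB1 microglia and 60.0, 82.9 and 102 CPM in GFP microglia, a log2 fold change of 0.05 (SE 0.11). Tnfaip3 codes for A20, the ubiquitin-editing enzyme that ends signalling to IKK. It had 45.3, 56.6 and 91.8 CPM in TGFB1 microglia, against 24.2, 47.0 and 69.8 CPM in GFP microglia. Of the TGFB1 libraries 6 of 7 lay above the GFP mean, but the ranges overlapped, and the log2 fold change of 0.39 (SE 0.22, 95% interval -0.07 to 0.86) had an adjusted p of 0.816 in edgeR.

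Among the subunits, Rel (chr11:23736847-23770970, minus strand) codes for c-Rel, which is found mainly in blood-derived and immune cells. It had 96.5 CPM at the lowest, 104 CPM at the median and 124 CPM at the highest in TGFB1 microglia, against 78.9, 92.9 and 101 CPM in GFP microglia. All 7 TGFB1 libraries lay above the GFP mean, but the lowest of them was under the highest GFP library. The log2 fold change was 0.21 (SE 0.08, 95% interval 0.04 to 0.37), with an adjusted p of 0.549 in edgeR. It was 0.20 among the libraries with Y-linked counts alone and 0.22 among those with Xist counts alone. Rela gave a log2 fold change of 0.04 (SE 0.09), Nfkb1, the p105 precursor of p50, 0.12 (SE 0.09), and Nfkb2, the p100 precursor of p52, 0.13 (SE 0.12). Relb, the partner of p52 in the alternative pathway, had -0.01 (SE 0.15), and its sign changed in 11 of 29 alternative settings. The ranges of all 4 overlapped between the treatments. Of the exon bases of Nfkb2, 18.1% are shared with genes on the other strand, and the strand setting of the counting is not given in the sources used here.

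**Figure D2:**
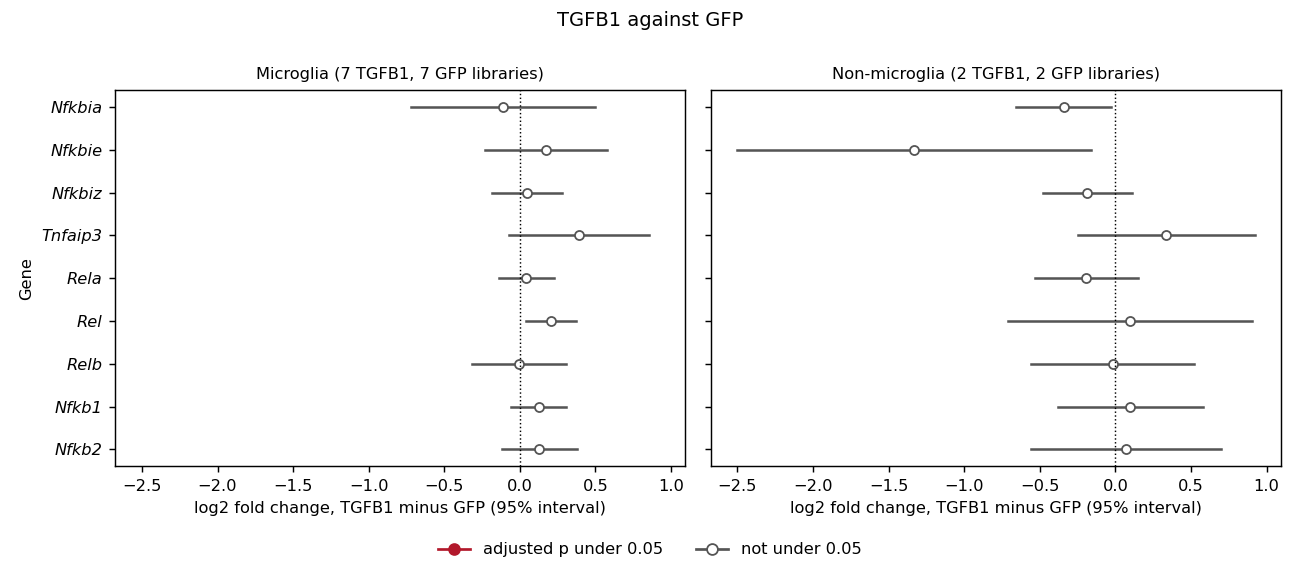
Log2 fold change of the 9 tested members, TGFB1 minus GFP, with 95% intervals from edgeR, in microglia (left) and non-microglia (right). No point is marked as passing, and the intervals of Rel in microglia and of Nfkbia and Nfkbie in non-microglia do not reach 0.

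The rest of the pathway was read from lists of genes. The lists were chosen with earlier results of these data known, so a called gene in them is no independent support for the list. Of all genes tested in TGFB1 against GFP microglia, 0.237% were higher and 0.0729% lower. In TGFB1 against GFP microglia, 2 of 21 tested receptors that signal to NF-kappaB rose: Clec7a, the beta-glucan receptor, averaged 48.3 ± 11.2 CPM in TGFB1 microglia and 26.9 ± 7.24 CPM in GFP microglia (log2 fold change 0.83, SE 0.17, adjusted p = 0.0256 by edgeR). Tlr13, an endosomal sensor of bacterial ribosomal RNA, averaged 404 ± 55.6 CPM in TGFB1 microglia and 311 ± 34.2 CPM in GFP microglia (log2 fold change 0.37, SE 0.08, adjusted p = 0.0344 by edgeR). Of the ligands 1 of 7 rose, Tnfsf13b (BAFF, log2 fold change 0.41, SE 0.07). Of known NF-kappaB targets 1 of 23 rose, the macrophage growth factor gene Csf1 (log2 fold change 0.98, SE 0.19). None of 16 other IkB family members and brakes of the pathway, none of 30 IKK components and adaptors and none of 18 immediate early genes passed. Before adjustment 2, 3 and 3 of them were under 0.05, as were 5 of 21 receptors, 1 of 7 ligands and 7 of 23 targets. Of all 10970 genes tested 730 were under 0.05 before adjustment. The smallest p among the brakes belonged to Pdlim2 (log2 fold change -0.39, SE 0.16) and Traf3 (0.34, SE 0.16), among the adaptors to Tab2 (-0.27, SE 0.12) and the kinase gene Ripk1 (-0.39, SE 0.18), and among the immediate early genes to Egr2 (0.77, SE 0.20) and Dusp1 (-0.47, SE 0.14). The calls of Clec7a and Csf1 ended in 11 and 8 of 28 alternative settings, that of Tlr13 in 17 of 29 and that of Tnfsf13b in 2 of 29. The 2 settings that ended the Tnfsf13b call were the fits of 8 and of 6 libraries, those with Y-linked and those with Xist counts.

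Nfkbia had a wide spread between the libraries of a group. Its coefficient of variation was 37.5% in TGFB1 microglia and 36.4% in GFP microglia, against 9.63% and 7.71% for Rel. The spread followed a split that the labels do not give. Of the 14 microglia libraries, 8 held counts of Y-linked genes and almost none of Xist, and the other 6 held Xist counts and no Y-linked counts. The 8 are replicates 3 to 6 of both treatments and the 6 are replicates 2, 7 and 8, so the sex of the cells and whatever else those replicate numbers share cannot be told apart. In the libraries with Y-linked counts Nfkbia had 302, 227, 274 and 200 CPM in TGFB1 microglia and 337, 238, 255 and 249 CPM in GFP microglia. In the libraries with Xist counts it had 118, 141 and 122 CPM in TGFB1 microglia and 138, 130 and 145 CPM in GFP microglia. Every library with Y-linked counts was thus above every library with Xist counts, within each treatment as well as over both. Among the other members no range was separate over both treatments, and 0.347% of autosomal genes tested had ranges that did not overlap.

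Nfkbie went the same way as Nfkbia and Nfkbiz went the other way. Nfkbie had 22.3 to 39.6 CPM (median 26.8) in the 8 libraries with Y-linked counts and 15.1 to 23.0 CPM (median 16.2) in the 6 with Xist counts, and TGFB1 microglia replicate 8 was the Xist library that reached into the upper range. Nfkbiz had 60.0 to 84.8 CPM (median 71.2) in the libraries with Y-linked counts and 82.6 to 102 CPM (median 94.2) in those with Xist counts. Over the 14 libraries, after subtracting the treatment means, Nfkbia correlated with Nfkbie at r = 0.75 and with Nfkbiz at r = -0.82. These values describe the split, since the libraries stand in separate sets. After subtracting the treatment means, the genes most like Nfkbia among 8854 were Tagap (r = 0.965), the Y-linked Eif2s3y (r = 0.946) and E430024P14Rik (r = 0.941), and those most like Rel were Nup188 (r = 0.813), Mtmr12 (r = 0.812) and Armc5 (r = 0.799). Microglia markers summed to 47192 to 56276 CPM in the libraries with Y-linked counts and 47348 to 53677 CPM in those with Xist counts. Mueller glia markers had a median sum of 5059 CPM in the libraries with Y-linked counts and 5805 CPM in those with Xist counts, and without Apoe 505 CPM and 431 CPM. Ribosomal RNA repeat genes took 9.52 to 10.1% of counts in the TGFB1 libraries with Y-linked counts and 5.66 to 7.20% in the TGFB1 libraries with Xist counts, while the GFP libraries overlapped, at 8.34 to 11.3% and 8.47 to 10.6%. A fit of the split with those genes taken out was among 25 alternatives, in which the log2 difference of Nfkbia was 0.88 to 1.06. The share itself was not a term in any fit, and its part in the Nfkbia level was not tested otherwise. The sum of 23 immediate early genes was 4618 to 5768 CPM (median 5213) in the libraries with Y-linked counts and 5371 to 6352 CPM (median 5816) in those with Xist counts. With the log2 of that sum, taken without Junb, as a term in the fit, the log2 difference of Nfkbia, Y-linked minus Xist, was 1.06. It was 0.96 without the term. In the fit without that term, of a split chosen after its values had been seen, 2 of 9 tested members were higher in the libraries with Y-linked counts and 1 was lower by edgeR. Of the autosomal genes tested 0.901% passed, 0.563% higher and 0.338% lower.

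**Figure D3:**
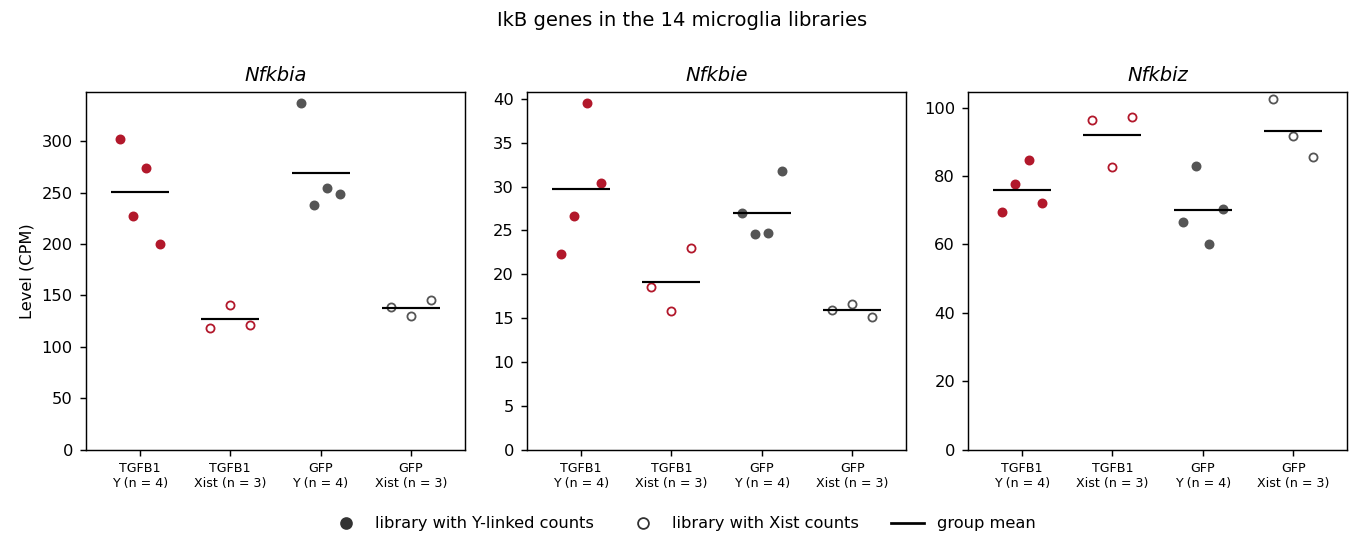
Levels of Nfkbia, Nfkbie and Nfkbiz in CPM (linear axis from 0) in the 14 microglia libraries, by treatment and by whether Y-linked genes or Xist gave counts, with means as lines. For Nfkbia all 8 filled points, at 200 to 337 CPM, are above all 6 open points, at 118 to 145 CPM, while Nfkbiz is lower in most filled points.

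The treatment comparison was repeated within the split. The log2 fold change of Nfkbia was -0.11 among the libraries with Y-linked counts and -0.12 among those with Xist counts, and with the split as a term in the fit it was -0.12 (adjusted p = 0.833 by edgeR). No member was called under any of these settings.

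In non-microglia 0 of 9 tested members passed in either direction, while 0.39% of 13598 genes passed, 0.338% higher and 0.0515% lower. Without adjustment 2 of 9 members were under 0.05, as were 1037 of all 13598 genes tested. DESeq2 and limma voom called 0 members. DESeq2 gave no adjusted p for Nfkbie, Nfkb1, Nfkb2, Rel, Relb and Tnfaip3 there. Nfkbia had 75.3 and 72.8 CPM in TGFB1 non-microglia, against 110 and 77.8 CPM in GFP non-microglia, with a log2 fold change of -0.34 (SE 0.15, adjusted p = 0.587 by edgeR). Nfkbie had 4.89 and 0.975 CPM in TGFB1 non-microglia, against 8.52 and 6.40 CPM in GFP non-microglia, with a log2 fold change of -1.33 (SE 0.57, adjusted p = 0.572 by edgeR). That value was -2.89 without TGFB1 replicate 1 and -0.60 without TGFB1 replicate 2. Rela had 46.6 and 50.04 CPM in TGFB1 non-microglia, against 53.8 and 57.2 CPM in GFP non-microglia, with a log2 fold change of -0.19 (SE 0.17). For these 3 members both TGFB1 libraries lay under both GFP libraries, and 36.4% of all genes tested had ranges that did not overlap, in either order. The Nfkbie values rest on 18 counts in TGFB1 non-microglia and 48 counts in GFP non-microglia. The log2 fold changes of the other 6 lay between -0.18 (Nfkbiz) and 0.34 (Tnfaip3), and their ranges overlapped.

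Other cell types moved in the same libraries. Of 9 tested bipolar cell markers 8 rose and their sum was 1767 and 2088 CPM in TGFB1 non-microglia, against 1083 and 1156 CPM in GFP non-microglia. Of 4 tested erythroid markers 3 fell. None of 3 tested rod markers and 8 tested cone markers passed, but their sums were lower. Rod markers summed to 146 and 194 CPM in TGFB1 non-microglia, against 262 and 349 CPM in GFP non-microglia. Cone markers summed to 873 and 1229 CPM in TGFB1 non-microglia, against 1650.5 and 1952.5 CPM in GFP non-microglia. In these bulk samples fewer cells of a type and less RNA per cell cannot be told apart, and the part of these lists in the Nfkbia and Nfkbie values was not tested. Of the pathway lists, immediate early genes had 1 of 15 lower, Jun, an AP-1 subunit (log2 fold change -0.48, SE 0.11, adjusted p = 0.0386 by edgeR), a call that ended in 6 of 11 alternative settings. None of 12 brakes, 28 IKK components and adaptors, 10 receptors, 3 ligands and 12 targets passed, with 0, 3, 2, 0 and 0 of them under 0.05 before adjustment. So were 4 of the 15 immediate early genes and 1037 of all 13598 genes tested. The smallest p among the adaptors belonged to Traf5 (log2 fold change 0.89, SE 0.31) and Ube2v1 (0.60, SE 0.25), and among the receptors to Il1rap (0.80, SE 0.21) and Tlr4 (1.11, SE 0.44).

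Microglia stood above non-microglia in most members. In TGFB1 retinas 8 of 9 tested members were higher in microglia and 0 lower, while 65.2% of 15321 genes tested passed, 30.8% higher and 34.4% lower. In GFP retinas 8 of 9 were higher and 1, Nfkbiz, was lower, while 64.2% of genes passed, 29.9% higher and 34.2% lower. The members' median log2 fold change was 1.62 in TGFB1 retinas and 1.55 in GFP retinas, against -0.04 and -0.06 over all genes tested. With library totals alone as the scale the median over all genes fell to -0.52 in TGFB1 retinas and -0.56 in GFP retinas. Of the genes called, 30.5% and 29.3% were then higher in microglia, in place of 47.3% and 46.6%. On that scale 7 of 9 members stayed higher in both kinds of retina, all but Nfkbia and Nfkbiz.

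Rel had the largest log2 fold change of the tested members between the fractions, except without TGFB1 non-microglia replicate 1, where Nfkbie was at 4.64 and Rel at 3.74 in TGFB1 retinas. In TGFB1 retinas it had 96.5 to 124 CPM in microglia, against 9.46 and 8.12 CPM in non-microglia, and in GFP retinas it had 78.9 to 101 CPM in microglia, against 9.99 and 6.40 CPM in non-microglia. The log2 fold changes were 3.61 (SE 0.18) in TGFB1 retinas and 3.48 (SE 0.18) in GFP retinas, with adjusted p-values of 5.235e-15 and 1.115e-14 by edgeR. Nfkb1 followed among the subunits, with 102 to 134 CPM in microglia against 25.1 and 25.7 CPM in non-microglia of TGFB1 retinas, and 86.03 to 131 CPM in microglia against 20.9 and 26.9 CPM in non-microglia of GFP retinas. Its log2 fold changes were 2.21 (SE 0.17) and 2.17 (SE 0.17). Nfkb2 had log2 fold changes of 1.72 and 1.65, and Relb of 1.35 and 1.32, in TGFB1 and GFP retinas. Rela had the smallest difference of the subunits, 1.12 (SE 0.14) in TGFB1 retinas and 0.88 (SE 0.14) in GFP retinas. The ranges of all 5 subunits were separate between the fractions, as for 64.5% of genes tested in TGFB1 retinas and 63.4% in GFP retinas.

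The inhibitors were less uniform. Tnfaip3 was higher in microglia by 1.62 (SE 0.36) on the log2 scale in TGFB1 retinas and by 1.55 (SE 0.37) in GFP retinas. Nfkbie was higher by 3.08 (SE 0.46) in TGFB1 retinas and by 1.56 (SE 0.39) in GFP retinas. The TGFB1 value of Nfkbie was 4.64 without TGFB1 non-microglia replicate 1 and 2.38 without replicate 2. Nfkbia had 118 to 302 CPM in microglia against 75.3 and 72.8 CPM in non-microglia of TGFB1 retinas, and 130 to 337 CPM in microglia against 110 and 77.8 CPM in non-microglia of GFP retinas. Its log2 fold changes were 1.42 (SE 0.45, adjusted p = 0.0116) in TGFB1 retinas and 1.18 (SE 0.44, adjusted p = 0.0278) in GFP retinas by edgeR. All non-microglia libraries held Y-linked counts, and against the microglia libraries with Y-linked counts alone these values were 1.74 and 1.49. The Nfkbia calls ended with library totals alone as the scale (log2 fold change 0.93, adjusted p = 0.0506 in TGFB1 retinas; 0.66, adjusted p = 0.140 in GFP retinas). They also ended without either non-microglia library of the same treatment, with adjusted p of 0.0688 and 0.0751 in TGFB1 retinas and 0.0606 and 0.192 in GFP retinas, and in GFP retinas with no filter on low counts (adjusted p = 0.0910).

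Nfkbiz was the tested member that was not called higher in microglia. The untested Bcl3 averaged 1.49 CPM in microglia and 1.95 CPM in non-microglia of TGFB1 retinas, and 1.34 CPM in microglia and 1.45 CPM in non-microglia of GFP retinas. Nfkbiz had 69.6 to 97.3 CPM in microglia against 105 and 77.3 CPM in non-microglia of TGFB1 retinas. In GFP retinas Nfkbiz had 60.0 to 102 CPM in microglia against 99.0 and 110 CPM in non-microglia, and the ranges overlapped in both. The log2 fold change was -0.14 (SE 0.16, adjusted p = 0.468) in TGFB1 retinas and -0.39 (SE 0.16, adjusted p = 0.0394) in GFP retinas by edgeR. The GFP call ended without GFP microglia replicate 3 (adjusted p = 0.0695), 5 (0.0650) or 6 (0.0666), without GFP non-microglia replicate 1 (0.103) or 2 (0.267), and in a fit of the GFP libraries alone (0.0856). With library totals alone Nfkbiz was called lower in TGFB1 retinas too (log2 fold change -0.62, adjusted p = 0.00538).

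**Figure D4:**
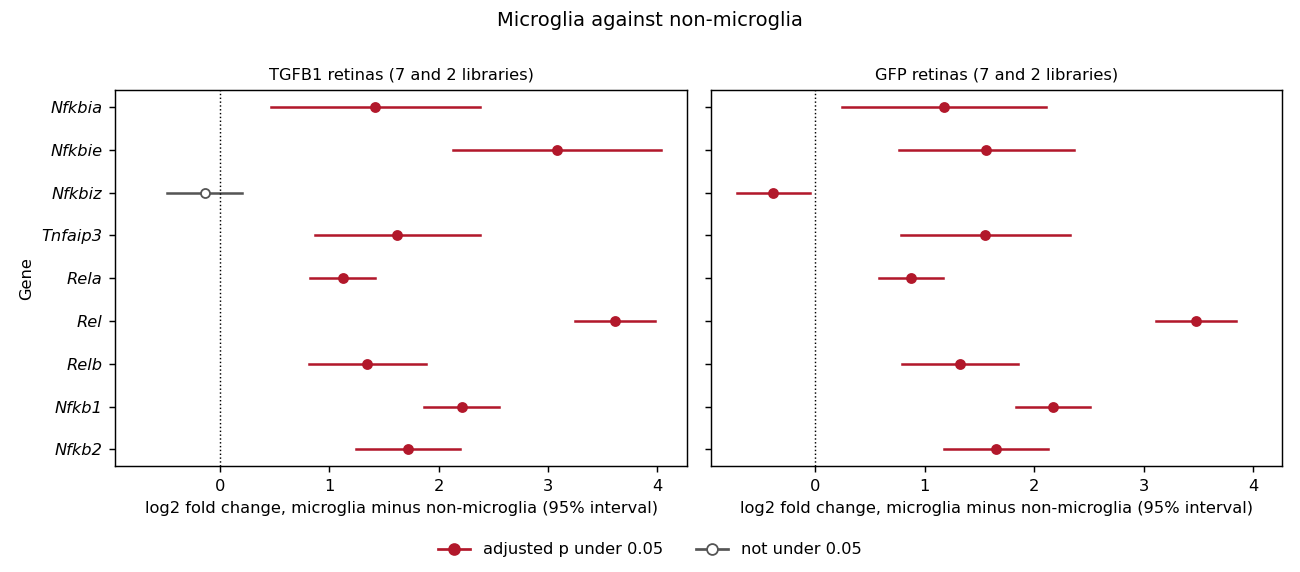
Log2 fold change of the 9 tested members, microglia minus non-microglia, with 95% intervals from edgeR, in TGFB1 retinas (left) and GFP retinas (right). Rel lies farthest to the right, at 3.61 and 3.48, and Nfkbiz lies left of 0 in both, at -0.14 and -0.39.

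The pathway lists are read against the 30.8% of genes higher and 34.4% lower in TGFB1 retinas, and the 29.9% and 34.2% in GFP retinas. Of 24 tested receptors 19 were higher and 2 lower in TGFB1 retinas and 19 and 2 in GFP retinas. Of 8 ligands 6 were higher and 1 lower in both, the lower one being Il33, an alarmin made by other retinal cells, at 1.91 ± 2.91 CPM in microglia against 199 ± 0.985 CPM in non-microglia of TGFB1 retinas. Of 27 targets 19 were higher and 3 lower in TGFB1 retinas and 18 and 3 in GFP retinas. Icam1, an adhesion receptor gene, averaged 195 ± 17.3 CPM in microglia and 17.1 ± 2.49 CPM in non-microglia of TGFB1 retinas. Of 32 IKK components and adaptors 20 were higher and 5 lower in TGFB1 retinas and 22 and 3 in GFP retinas. Of 16 brakes 9 were higher and 2 lower in TGFB1 retinas and 8 and 1 in GFP retinas, with Tax1bp1, an A20 adaptor, lower in both. With library totals alone as the scale, 3232 of 15321 genes were higher and 7363 lower in TGFB1 retinas, and 3119 and 7531 in GFP retinas. On that scale the adaptors gave 14 higher and 6 lower in TGFB1 retinas and 15 and 6 in GFP retinas, and the brakes 6 and 4 in TGFB1 retinas and 4 and 2 in GFP retinas, with median log2 fold changes of 0.42 and 0.12 for the brakes. The targets then gave 19 higher and 7 lower in TGFB1 retinas and 18 and 7 in GFP retinas. Immediate early genes, which dissociation can induce, were higher in 17 of 20 and lower in 1 in TGFB1 retinas and higher in 18 and lower in 1 in GFP retinas. Their sum was 4708 to 5768 CPM in TGFB1 microglia and 4618 to 6352 CPM in GFP microglia, against 907 to 917 CPM in TGFB1 non-microglia and 1077 to 1103 CPM in GFP non-microglia, and its part in the members' levels was not tested.

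The difference of the TGFB1 effects between the fractions was tested directly, as the microglia effect minus the non-microglia effect. None of the 9 members passed in edgeR, while 0.0131% of genes passed. Without adjustment 1 of the 9, Nfkbie, was under 0.05, as were 711 of all 15321 genes tested. DESeq2 and limma voom called 0, with no adjusted p for Nfkbie from DESeq2. Nfkbie had a difference of 1.52 on the log2 scale (SE 0.61, 95% interval 0.26 to 2.78), with an adjusted p of 0.9999 by edgeR. It was 3.05 without TGFB1 non-microglia replicate 1 and 0.79 without TGFB1 non-microglia replicate 2. The other 8 had differences of 0.03 (Relb) to 0.25 (Rela), and the 95% interval of each included 0.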

How the data were processed

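RNA-seq was done on 18 libraries of sorted retinal cells. The deposited table holds raw read counts per Ensembl gene, made by the authors with STAR and featureCounts on GRCm38.p6, per the submitters' processing notes, which also name DESeq2. Versions, annotation and strand setting are not stated there. Symbols came from GENCODE M21 (54495 identifiers matched, 37 did not). Totals of 1582451 to 3064027 counts limit precision for low genes. edgeR 4.0.16 (R 4.3.3) with TMM scaling, filterByExpr and the robust quasi-likelihood test was fitted to 14 microglia, 4 non-microglia or all 18 libraries; standard errors are the log2 fold change over the root of F. P-values were adjusted over all genes tested. Alternatives used limma 3.58.1 voom, DESeq2 1.42.0, other scaling, filters, covariates and left-out libraries. The immediate early covariate was the log2 of the list's summed CPM without Junb. The tests were checked on simulated data. The 10 members and the gene lists were chosen with earlier results of these data known. Of other pathway genes the text names, per list, up to 4 called with the smallest p, or up to 2 where none was called. No libraries were near-identical.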

Additional observations from a re-analysis of the deposited data

How the results depend on the processing

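In TGFB1 against GFP, 0 members were called in microglia under any of 29 alternatives and 0 in non-microglia under any of 11. Signs changed only for uncalled members, and the cause was not tested. In microglia Relb (main -0.01) gave 0.0016 in the fit of all 18 libraries, 0.0074 with library totals alone, 0.098 with the Mueller glia list as a covariate, 0.040 with the immediate early list as a covariate and 0.18 in the libraries with Y-linked counts only. Nfkbia gave 0.017 with the Mueller glia covariate, Rela -0.0074 in the libraries with Y-linked counts only, and Nfkbiz -0.019 and Nfkb2 -0.27 in those with Xist counts only. Leaving out each library in turn gave -0.24 to 0.030 for Nfkbia, -0.010 to 0.12 for Nfkbiz and -0.091 to 0.061 for Relb in microglia. In non-microglia it gave -0.56 to -0.07 for Nfkbia, -2.89 to -0.60 for Nfkbie, -0.43 to 0.024 for Nfkbiz, -0.086 to 0.30 for Nfkb1, -0.40 to 0.43 for Nfkb2, -0.17 to 0.45 for Rel, -0.17 to 0.17 for Relb and -0.11 to 0.68 for Tnfaip3. Between treatments, Nfkb1 in microglia minus non-microglia gave -0.053 with Y-linked microglia libraries only and Relb -0.0052 with limma voom. Left-out libraries gave -0.048 to 0.48 for Nfkbia, 0.79 to 3.05 for Nfkbie, 0.04 to 0.48 for Nfkbiz, -0.14 to 0.20 for Nfkb1, -0.28 to 0.54 for Nfkb2, -0.25 to 0.40 for Rel, -0.18 to 0.20 for Relb and -0.28 to 0.52 for Tnfaip3 in that difference.

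Between the fractions, the members called lower in GFP retinas were 0 in the fit of the GFP libraries alone and 0 to 1 with a library left out. With library totals alone 1 member was called lower in TGFB1 retinas, and left-out libraries gave -0.32 to 0.12 for Nfkbiz there. With replicate number as a block, 0 members were called in microglia, non-microglia or the difference; over all genes the block gave 41 higher and 19 lower in microglia, against 26 and 8, and 89 higher and 20 lower in non-microglia, against 46 and 7. Same-numbered libraries correlated in their deviations from group means at 0.13 to 0.27 in 6 of 7 microglia pairs, at -0.14 for replicate 6 and at -0.08 in non-microglia. The closest partner had the same number for 3 of the 7, and each number held the same Y-linked or Xist class in both treatments. As not every pair was over 0.1, and the labels tie no numbers together, the block was not taken as the main design. Over all genes the microglia comparison also gave 39 higher and 25 lower with no filter, 40 and 16 with the Xist or Y split as a covariate, 7 and 7 with the Mueller glia list without Apoe as a covariate, 11 and 4 in the fit of all 18, 1 and 2 in the libraries with Y-linked counts and 17 and 2 in those with Xist counts. It gave 17 and 6, 14 and 7 and 10 and 6 without TGFB1 replicates 3, 7 and 8, and 20 and 14, 14 and 5 and 16 and 8 without GFP replicates 2, 3 and 4. Non-microglia gave 86 and 16 with no filter, 29 and 4 with DESeq2 and 4 and 0 in the fit of all 18, and 22 and 6 without TGFB1 replicate 1, 87 and 23 without GFP replicate 1 and 77 and 33 without GFP replicate 2. The difference between fractions gave 0 and 2, against 3 and 9 with no filter and 1 and 3 with DESeq2. The split by Y-linked or Xist counts gave 69 and 41, against 134 and 203 with no filter, 109 and 61 with DESeq2, 40 and 103 with library totals alone, 2 and 0 in GFP microglia alone and 43 and 15 with the immediate early covariate. It gave 38 and 15, 43 and 26 and 42 and 23 without TGFB1 replicates 2, 7 and 8, and 37 and 16 and 135 and 62 without GFP replicates 7 and 8. In the split by Y-linked or Xist counts, 1 member was called higher with limma voom, in TGFB1 microglia alone and in GFP microglia alone, and 1 to 3 with a library left out. The members called lower were 0 with no filter, limma voom, either treatment alone, the Mueller glia list without Apoe or the immediate early list as a covariate, and 0 to 1 with a library left out. In that split Nfkb1 was -0.038 in TGFB1 microglia alone and -0.0075 with library totals alone, and Nfkb2 was -0.20 and Rela 0.0011 in GFP microglia alone. With 2 non-microglia libraries a treatment, low members such as Nfkbie rest on few counts.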

Other observations

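The split of the microglia libraries by Y-linked or Xist counts was tested after its values had been seen, in an edgeR quasi-likelihood fit with treatment as a term. It compares libraries, not groups of the study, and the replicate numbers that make up each set cannot be told apart from the sex of the cells. Of 9 tested members 2 were higher in the 8 libraries with Y-linked counts and 1 was lower, while 0.563% of 10655 autosomal genes were higher and 0.338% lower. Nfkbia averaged 260 ± 43.6 CPM in the libraries with Y-linked counts (SD, n = 8) and 132 ± 10.9 CPM in those with Xist counts (n = 6). Its log2 difference was 0.96 (SE 0.09, 95% interval 0.78 to 1.14, edgeR adjusted p = 1.045e-07), and it ranked 1 among autosomal genes by p. It was 0.97 in TGFB1 microglia alone and 0.95 in GFP microglia alone, and 0.88 to 1.06 over 25 alternatives, with adjusted p of at most 0.000636.

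Nfkbie averaged 28.3 ± 5.49 CPM in the libraries with Y-linked counts and 17.5 ± 2.93 CPM in those with Xist counts, a log2 difference of 0.68 (SE 0.15, edgeR adjusted p = 0.0226). Nfkbiz averaged 73.0 ± 8.36 CPM in the libraries with Y-linked counts and 92.7 ± 7.53 CPM in those with Xist counts, a log2 difference of -0.36 (SE 0.09, edgeR adjusted p = 0.0433). The Nfkbie call ended in 8 of 25 alternatives and the Nfkbiz call in 16 of 25, with the sign kept in each. The Nfkbie call ended without TGFB1 microglia replicate 2, 5 or 7 or GFP microglia replicate 7 (edgeR adjusted p = 0.0544, 0.0640, 0.0674 and 0.0569), within either treatment alone, with limma voom and with the immediate early list as a covariate (0.123). The Nfkbiz call ended without replicate 2, 3, 4, 6 or 8 of TGFB1 microglia or replicate 2, 3, 5, 6 or 7 of GFP microglia. Relb and Tnfaip3 did not pass, with log2 differences of 0.33 (SE 0.14) and 0.41 (SE 0.19). Relb passed with the immediate early list as a covariate (0.66, edgeR adjusted p = 0.0275). Tnfaip3 passed with no filter (edgeR adjusted p = 0.0381), with the Mueller glia list without Apoe as a covariate (0.0477) and without GFP microglia replicate 5 (0.0227). Over all genes 62.7% of the calls were higher in the libraries with Y-linked counts, against 28% with library totals alone as the scale.

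Of the pathway lists, 1 of 7 ligands was lower in the libraries with Y-linked counts. This was Tnf, the cytokine that signals to NF-kappaB and is also among its targets, at 23.5 ± 7.20 CPM in the libraries with Y-linked counts and 39.3 ± 9.75 CPM in those with Xist counts (log2 difference -0.77, SE 0.15, edgeR adjusted p = 0.00850), and the call ended in 4 of 25 alternatives, among them leaving out TGFB1 microglia replicate 2 (adjusted p = 0.0504). Of 18 immediate early genes 2 were lower, Fosb (log2 difference -1.83, SE 0.38, a call that ended without TGFB1 microglia replicate 2 or 7, without GFP microglia replicate 7 and with the immediate early list as a covariate) and Dusp1 (-0.38, SE 0.09), the second of which ended in 16 of 25 alternatives. None of 16 brakes, 30 IKK components and adaptors and 21 receptors passed.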
